A study of Mus musculus with 12 samples.

Results

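The messenger RNA levels of 38 integrin and focal adhesion genes were examined in NIH-3T3, an immortalised line of mouse embryonic fibroblasts, among 16300 genes in the deposited table. The genes were taken from a list of names that covers integrin subunits and the proteins that join them to actin. The rule itself uses no measured value, but the list was chosen with earlier results of these data known. All 38 were found in the table, each under 1 gene identifier. The 12 libraries form 4 groups of 3, and every culture was harvested at 24 h. TS cultures received 100 ng/mL of recombinant stanniocalcin-1 (STC-1), a secreted glycoprotein, together with 10 ng/mL of transforming growth factor TGF-β1. TGFb1 cultures received TGF-β1 alone at 10 ng/mL, STC1 cultures received STC-1 alone at 100 ng/mL, and Con cultures received phosphate-buffered saline. The series text calls the 3 libraries of a group biological replicates, and no genotype differs between groups. All results come from 1 cell line at 1 time, and neither adhesion nor protein was measured.

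Integrins are receptors made of 1 α and 1 β subunit that bind matrix proteins such as fibronectin, collagen and vitronectin. Inside the cell, talin and kindlin bind the β tail, vinculin and the LIM-domain proteins gather under tension, and α-actinin, filamin and the Ena/VASP proteins connect the site to actin filaments. Focal adhesion kinase, Src, paxillin and the Crk adaptors pass the signal on. In fibroblasts these sites carry the traction of the cell on its matrix, several αv integrins release TGF-β from its latent form, and TGF-β is widely known as an inducer of matrix and adhesion genes.

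Library totals lay between 16867563 and 18521810 expected counts, which are estimates and can hold fractions. Of the 16300 genes, 11763 passed a filter on low counts, all 38 members among them, and raw values of the members ran from 45 to 28804 per library. Levels are given as CPM, counts rescaled to libraries of one size, after TMM scaling, which evens out library composition. Fibroblast markers summed to between 12520 and 13330 CPM in TS, 12580 and 13040 CPM in TGFb1, 12940 and 13490 CPM in STC1, and 13540 and 14310 CPM in Con libraries. The 6 macrophage markers summed to at most 10.4 CPM in any library, the 5 endothelial markers to at most 0.679 CPM and the 5 epithelial markers, of which 2 were absent from the table, to at most 0.906 CPM. Of the 4 platelet markers, whose sum reached at most 7.52 CPM, nearly all came from Itga2b, the integrin subunit αIIb, at a mean of 5.94 CPM. Tests used edgeR's quasi-likelihood fit over all 12 libraries with 1 mean per group, and a gene is called where its Benjamini-Hochberg adjusted p over the 11763 genes is under 0.05. These p-values measure the spread between the libraries of these cultures only.

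Integrin subunits differed far more from each other than between treatments. Per kilobase of transcript, a scale on which genes can be compared, Itgb1 (the β1 chain shared by fibronectin, collagen and laminin receptors) stood at 198 CPM/kb over all libraries. Itgb5, the partner of αv in a vitronectin receptor, followed at 37.03 CPM/kb. Itgb3, whose product forms the other well-known αv receptor, stood at only 0.491 CPM/kb, below 3 β subunits that are not among the members, Itgb7, Itgb2 and Itgb8. Itgb1 made up 83.0% ± 0.842 of all β-subunit signal in TS, 82.9% ± 0.559 in TGFb1, 82.2% ± 0.66 in STC1 and 82.5% ± 0.251 in Con libraries (SD, n = 3 each).

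Among the α subunits, Itgav (αv) and Itga5 (α5, the fibronectin receptor's own chain) stood level at 32.8 and 32.1 CPM/kb. Itga6, part of the laminin receptors, stood at 12.9 CPM/kb. Itga3 (laminin) and Itga11 (fibrillar collagen) were lower, at 2.83 and 2.42 CPM/kb. Their order in TS libraries lay within the spread between replicates, and in Con libraries it did not: Itga5 held 37.5% ± 0.65 of α-subunit signal in TS libraries and 36.8% ± 0.198 in Con libraries, and Itgav 37.3% ± 0.292 in TS libraries and 38.3% ± 0.322 in Con libraries (SD, n = 3 each). A further 17 integrin subunits in the table, 10 of them past the filter, are plotted with the members.

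**Figure D1:**
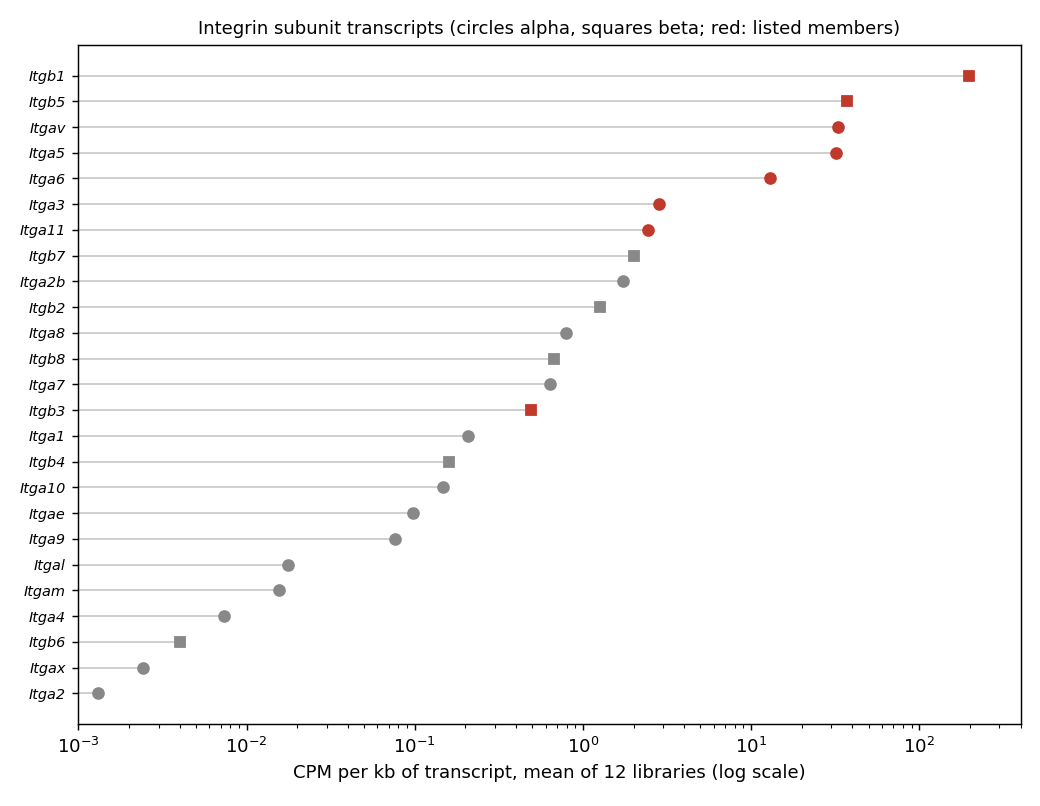
Mean level of each integrin subunit over the 12 libraries, as CPM per kilobase of transcript on a log axis. Circles are α and squares are β subunits, and the 8 members are in red. Itgb1 is highest at 198 CPM/kb, and Itgb3 lies at 0.491 CPM/kb among subunits outside the list.

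Across all 38 genes the mean level ran from 2.84 CPM (Itgb3) to 1505 CPM (Flna, the actin crosslinker filamin A), and 20 genes were above 100 CPM. The spread within groups was small, with a median coefficient of variation of 3.08%. The highest library exceeded the lowest by between 1.05 and 1.59 times, and the 3 genes with the widest range were Itga11 at 1.59 times, Itgb3 at 1.52 times and Src at 1.29 times.

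TGF-β1 lowered a few adhesion genes slightly and raised none past the test. In TGFb1 against Con libraries 4 of 38 members fell and 0 rose, where 2.08% of all genes tested were called lower and 1.9% higher. The 4 are Tgfb1i1, Lpp and Pdlim5, which encode LIM-domain proteins, and Vasp, an actin polymerase. Their share of 10.5% stands above the 2.08%, but the 2 shares are not of like precision. The median SE of the log2 fold changes was 0.035 among the members and 0.054 over all genes. When Con replicate 1 was left out, 3 of the 4 calls ended and Lpp alone was kept. Of the 38 log2 fold changes 32 were below 0, with a median of −0.056, against 51.1% below 0 and a median of −0.0022 over all genes. In 10 members every TGFb1 library lay below every Con library, and in 0 members above, where 10.9% and 10.4% of all genes did so. In bulk libraries, fewer cells of a type and less RNA per cell cannot be told apart.

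With both proteins, 5 of 38 members fell and 0 rose in TS against Con libraries, where 2.88% of all genes were called lower and 3.18% higher. They are Lpp and Pdlim5 again, with Tln1 (talin-1), Itgav and Enah (Mena, an Ena/VASP protein). Of the 38 log2 fold changes 30 were below 0, with a median of −0.05, against 50.1% and a median of −0.00021 over all genes. In 10 members every TS library lay below every Con library, and in 1 member, Arhgef7, above, where 11.2% and 10.7% of all genes did so. The count of calls was 1 without TS replicate 1, 2 without Con replicate 1, 3 without TS replicate 3 and 2 when only TS and Con libraries were fitted. Both comparisons share the 3 Con libraries.

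STC-1 alone moved no member past the test. In STC1 against Con libraries edgeR called 0 of 38, with a smallest adjusted p of 0.229, where 0.051% of all genes were called. DESeq2 gave only 16 of the 38 an adjusted p, after its own filter on low means, and called 0 of them. At an unadjusted p under 0.05, 6 members were lower and 0 higher, where 5.21% of all genes were lower and 5.4% higher. The 6 are Actn1, Parva, Zyx, Lpp, Enah and Vasp. Log2 fold changes were below 0 in 29 of the 38, with a median of −0.038, against 50.9% and a median of −0.0018 over all genes. Fold changes of the 35 members above 20 CPM lay between −0.11 and 0.06 on the log2 scale, and no 95% interval among them reached beyond 0.238 in either direction. In 8 members every STC1 library lay below every Con library, and in 1 member, Crk, above. Of the 11763 genes 884 (7.52%) lay below and 902 above.

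**Figure D2:**
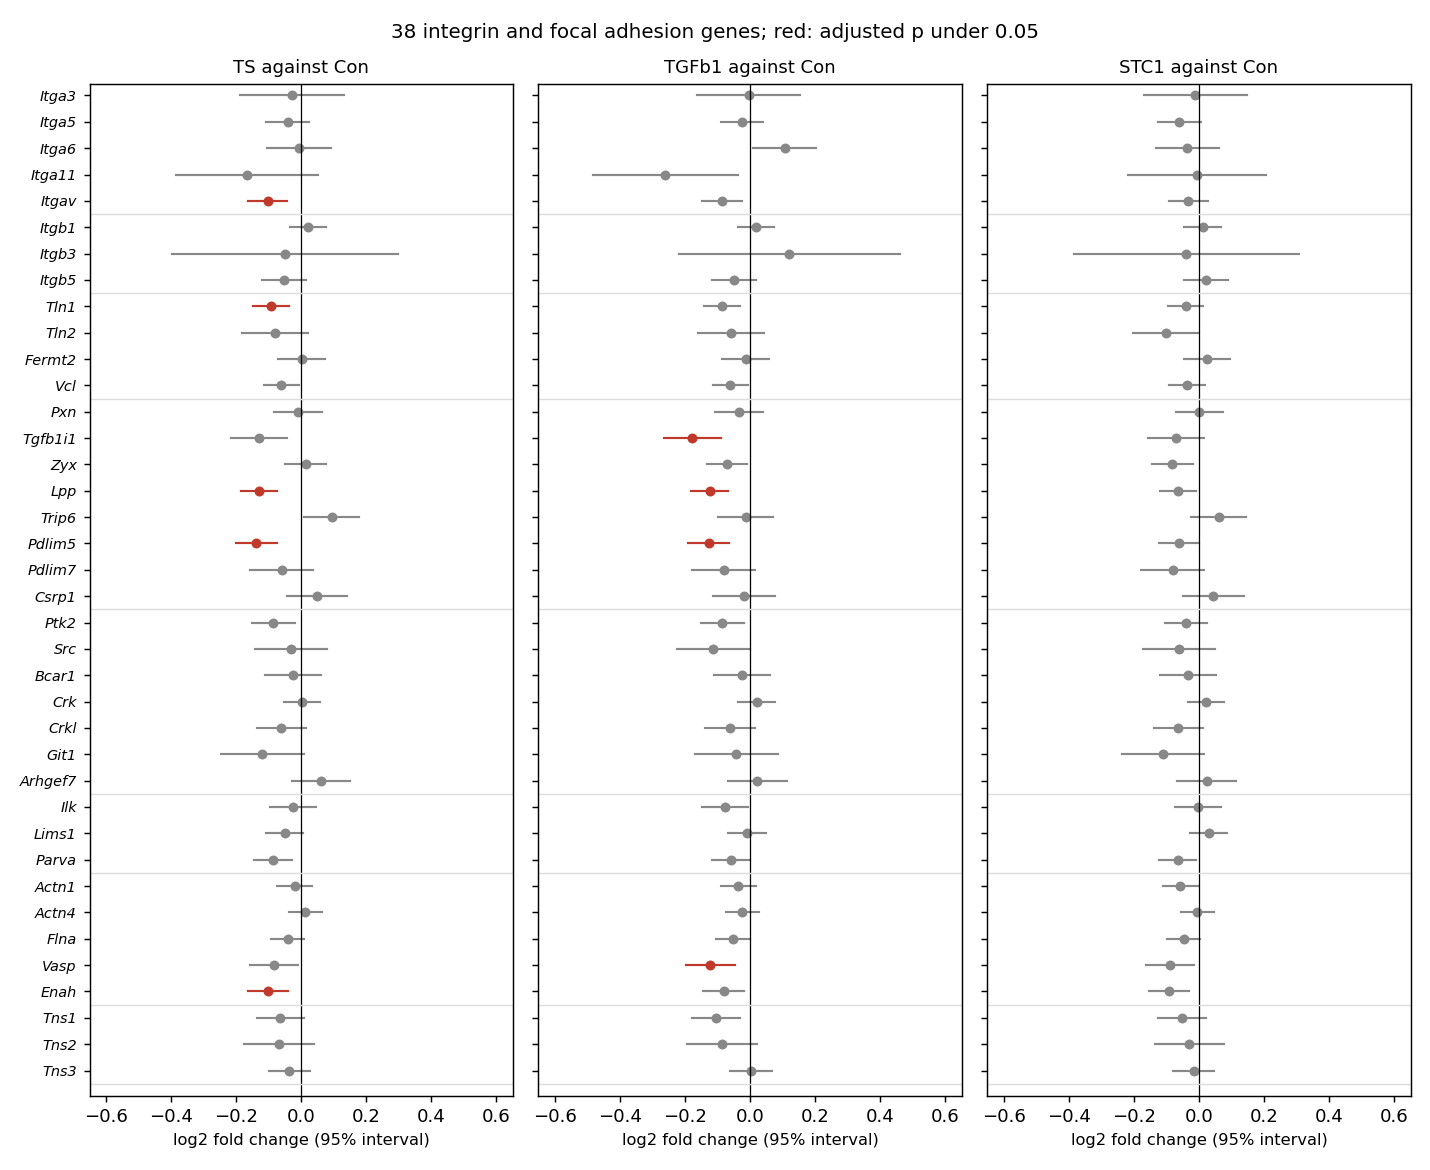
Log2 fold changes of the 38 genes in TS, TGFb1 and STC1 libraries, each against Con, with 95% intervals from edgeR, ordered by role from integrins at the top to tensins at the bottom. Red marks an adjusted p under 0.05: 5 genes in TS, 4 in TGFb1 and 0 in STC1, all of them below 0. The widest intervals belong to Itgb3 and Itga11, which have the lowest levels.

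The 250 bases before the start (a window) are shown for Tln1 and Lpp, the called members whose windows held a motif searched for. Windows of Enah, Itgav, Pdlim5 and Vasp, which were also called, held none. The windows of Vcl and Fermt2, the members with a serum response factor motif, are shown too. RefSeq windows (GRCm38.p6) were matched for 31 of the 38 members, 42 windows in all, among 32851 windows of all genes. They were searched on both strands for the CArG box, the site of serum response factor, which drives many cytoskeletal genes, for GGAATG, the core of the TEAD site, and for CAGAC, a SMAD-binding element of the TGF-β pathway. Capitals mark these matches, read on either strand (GTCTG is CAGAC on the other strand), and no marked matches overlap. Vcl (chr14:20929148-20929397, plus strand) holds a CArG box and a GGAATG. Fermt2 (chr14:45530066-45530315, minus strand) holds a CArG box. Tln1 (chr4:43562584-43562833, minus strand), a gene that fell, holds 1 CAGAC. Lpp (chr16:24721605-24721854, plus strand, one of its listed starts), which also fell, holds 1 GGAATG and 2 CAGAC. The window of its other listed start, not shown, holds CAGAC without GGAATG.
Vcl: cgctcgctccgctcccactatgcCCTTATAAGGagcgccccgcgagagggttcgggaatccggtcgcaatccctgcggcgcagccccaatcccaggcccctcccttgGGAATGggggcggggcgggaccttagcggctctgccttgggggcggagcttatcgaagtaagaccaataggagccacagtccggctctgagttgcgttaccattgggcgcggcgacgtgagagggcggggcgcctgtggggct
Fermt2: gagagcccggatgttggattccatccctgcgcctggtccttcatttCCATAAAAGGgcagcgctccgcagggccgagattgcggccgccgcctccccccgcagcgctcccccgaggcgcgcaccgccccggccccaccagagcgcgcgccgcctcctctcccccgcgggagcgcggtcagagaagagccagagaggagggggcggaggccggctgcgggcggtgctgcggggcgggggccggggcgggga
Tln1: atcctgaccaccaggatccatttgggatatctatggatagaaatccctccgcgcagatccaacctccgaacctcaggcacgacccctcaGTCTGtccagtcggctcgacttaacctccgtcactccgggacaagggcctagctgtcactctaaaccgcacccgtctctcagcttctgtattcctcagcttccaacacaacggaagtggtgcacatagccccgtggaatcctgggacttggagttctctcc
Lpp: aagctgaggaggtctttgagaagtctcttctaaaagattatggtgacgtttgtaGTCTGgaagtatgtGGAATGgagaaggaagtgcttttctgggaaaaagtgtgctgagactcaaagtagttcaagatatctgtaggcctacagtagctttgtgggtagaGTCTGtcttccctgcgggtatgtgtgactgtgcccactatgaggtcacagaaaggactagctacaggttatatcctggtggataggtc
A CArG box was present in 2 of the 42 windows, those of Vcl and Fermt2, against 1.47% of all windows. None of the 6 called members with a window held one. GGAATG was present in 6 of the 42 windows against 12.6% of all windows, and CAGAC in 15 of 42 against 42.2%. Among called members GGAATG stood in a window of Lpp, and CAGAC in windows of Lpp and Tln1. A match is a description of the letters only.

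The receptors themselves changed little. Itgb1 had 746, 733 and 799.7 CPM in TS libraries, 734, 758 and 785 in TGFb1 libraries, 747, 755 and 761 in STC1 libraries and 738, 748 and 759.6 in Con libraries. The 4 groups overlap throughout. Its log2 fold change was 0.021 ± 0.0278 (SE) in TS and 0.019 ± 0.0278 in TGFb1 libraries against Con, with 95% intervals of −0.035 to 0.077 and −0.036 to 0.075. Adjusted p was 0.747 and 0.795 by edgeR.

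Itgb5 had 117, 123 and 117 CPM in TS libraries, 121, 118 and 118 in TGFb1 libraries, 132, 122 and 121 in STC1 libraries and 124, 122 and 124 in Con libraries. The 3 TGFb1 values lie just under the 3 Con values, and STC1 replicate 1 is the highest of all. The difference was −0.051 ± 0.0338 on the log2 scale in TS libraries (adjusted p 0.434) and −0.050 ± 0.0339 in TGFb1 libraries (adjusted p 0.469), neither past the test. Itgb3 had 2.55, 2.66 and 2.97 CPM in TS libraries, 2.69, 2.63 and 3.88 in TGFb1 libraries, 3.03, 2.66 and 2.56 in STC1 libraries and 2.58, 2.80 and 3.10 in Con libraries. All groups overlap, and TGFb1 replicate 3 stands above the rest. At this level the 95% interval of the log2 fold change ran from −0.22 to 0.46 in TGFb1 against Con.

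Itgav was the only integrin gene called in any comparison against Con. It had 227, 225 and 219.9 CPM in TS libraries, 216, 236 and 228 in TGFb1 libraries, 231, 238 and 237 in STC1 libraries and 239.97, 251 and 231 in Con libraries. Every TS library lay below every Con library, while TGFb1 replicate 2 exceeded the lowest Con library. It fell in TS against Con with a log2 fold change of −0.10 ± 0.0304 (SE, edgeR adjusted p 0.0297) and stood at −0.086 ± 0.0304 in TGFb1 against Con (adjusted p 0.0957). The call in TS was lost when any of Con replicates 1 and 2 or TS replicates 1, 2 and 3 was left out, and when a trend with the length and GC share of transcripts was removed, where the change was −0.067 with an adjusted p of 0.184.

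Itga5 had 143, 142 and 134 CPM in TS libraries, 143, 139 and 142 in TGFb1 libraries, 140.2, 134 and 139.9 in STC1 libraries and 145, 148 and 138 in Con libraries. The groups overlap, with log2 fold changes of −0.041 ± 0.0326 in TS and −0.025 ± 0.0327 in TGFb1 libraries against Con and adjusted p of 0.533 and 0.772. Itga11 had 10.7, 13.6 and 10.3 CPM in TS libraries, 11.5, 9.41 and 11.5 in TGFb1 libraries, 14.98, 11.996 and 11.8 in STC1 libraries and 13.97, 13.5 and 11.3 in Con libraries. The Con and TGFb1 ranges overlap, and its log2 fold change of −0.26 ± 0.109 in TGFb1 against Con, the lowest among the members, had an adjusted p of 0.194. Itga6 averaged 59.3 ± 4.02 CPM in TGFb1 and 55.1 ± 2.54 CPM in Con libraries (SD, n = 3 each), with overlapping ranges and an adjusted p of 0.224. Itga3 averaged between 13.6 ± 0.557 CPM in TS and 13.8 ± 0.353 CPM in Con libraries, with the other groups in between.

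Talin-1, which binds integrin β tails and pulls the receptor into its active shape, was called lower in TS but not in TGFb1 libraries, each against Con. Tln1 had 319.6, 329 and 326 CPM in TS libraries, 327, 328 and 324 in TGFb1 libraries, 338, 331 and 341 in STC1 libraries and 357, 340.2 and 342 in Con libraries. All TS and TGFb1 libraries lay below all Con libraries, and Con replicate 1 stood highest. Tln1 fell in TS against Con with a log2 fold change of −0.092 ± 0.0271 (edgeR adjusted p 0.0284), and in TGFb1 against Con its −0.086 ± 0.0271 had an adjusted p of 0.0537, and was called in 3 of 7 other fits of these libraries (adjusted p between 0.0273 and 0.805). Without Con replicate 1 the TS change was −0.069 with an adjusted p of 0.243, and without TS replicate 1 it was −0.079 with an adjusted p of 0.176. With the length and GC trend removed the TS change was −0.03, with an adjusted p of 0.581, and the TGFb1 change −0.017, with one of 0.805. Tln1 supplied 88.9% ± 0.331 of talin signal per kilobase in TS, 88.8% ± 0.493 in TGFb1, 89.4% ± 0.63 in STC1 and 88.95% ± 0.252 in Con libraries, the rest being Tln2.

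Vinculin, which binds talin and actin under load, passed no test against Con. Vcl had 338, 352 and 354 CPM in TS libraries, 349.8, 342 and 352 in TGFb1 libraries, 356, 348 and 358 in STC1 libraries and 367, 357 and 366 in Con libraries. The TS and TGFb1 values all lay below the Con values, with log2 fold changes of −0.060 ± 0.0271 in TS and −0.060 ± 0.0272 in TGFb1 libraries and adjusted p of 0.203 and 0.218. Fermt2, the kindlin of fibroblasts, averaged 103 ± 3.14 CPM in TS, 102 ± 0.311 CPM in TGFb1, 104 ± 5.13 CPM in STC1 and 103 ± 1.52 CPM in Con libraries, with overlapping ranges.

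The LIM-domain proteins held 3 of the 4 calls in TGFb1 against Con libraries and 2 of the 5 in TS against Con. Tgfb1i1 encodes Hic-5, a paxillin relative first found as a TGF-β1-induced transcript. It had 61.4, 57.4 and 58.3 CPM in TS libraries, 57.1, 56.3 and 57.95 in TGFb1 libraries, 62.03, 63.1 and 59.4 in STC1 libraries and 69.6, 63.1 and 60.7 in Con libraries. The 3 TGFb1 values are all below the 3 Con values, and Con replicate 1 stands apart at the top. It fell in TGFb1 against Con with a log2 fold change of −0.18 ± 0.0439 (edgeR adjusted p 0.0105). Without Con replicate 1 the change was −0.12 with an adjusted p of 0.243, and without TGFb1 replicate 2 it was −0.17 with an adjusted p of 0.0603. In TS against Con, where TS replicate 1 exceeded the lowest Con library, it was −0.13 ± 0.0435 with an adjusted p of 0.0621, and 4 of 7 other fits called it (adjusted p between 0.025 and 0.105).

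Paxillin, the scaffold to which Hic-5 is related, passed no test. Pxn had 84.9, 84.5 and 82.96 CPM in TS libraries, 84.5, 81.5 and 82.4 in TGFb1 libraries, 86.4, 83.7 and 84.3 in STC1 libraries and 88.4, 83.6 and 81.9 in Con libraries. The groups overlap, with log2 fold changes of −0.010 ± 0.0367 in TS and −0.033 ± 0.0368 in TGFb1 libraries against Con and adjusted p of 0.915 and 0.716. Per kilobase, Tgfb1i1 made up 59.8% ± 0.767 of the summed Pxn and Tgfb1i1 signal in TS, 59.4% ± 0.484 in TGFb1, 60.6% ± 0.815 in STC1 and 61.8% ± 0.726 in Con libraries (SD, n = 3 each).

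Lpp, the lipoma preferred partner, a zyxin relative at adhesions and cell contacts, was the one gene called against Con whichever library was left out. It had 286, 303 and 288 CPM in TS libraries, 292, 289 and 298 in TGFb1 libraries, 298, 308 and 309.8 in STC1 libraries and 319, 323 and 316 in Con libraries. All TS, TGFb1 and STC1 libraries lay below all Con libraries, and the STC1 values stood mostly between. Lpp fell in TS against Con with a log2 fold change of −0.13 ± 0.0278 (edgeR adjusted p 0.00196) and in TGFb1 against Con with one of −0.12 ± 0.0279 (adjusted p 0.00467). In STC1 against Con it stood at −0.063 ± 0.0277 with an adjusted p of 0.411. Lpp has the longest transcript of the 38, at 15459 nt, and with the length and GC trend removed the change was −0.068 (adjusted p 0.115) in TS and −0.086 (adjusted p 0.0357) in TGFb1 libraries.

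Pdlim5 encodes ENH, a PDZ and LIM protein that binds α-actinin. It had 135, 141 and 141 CPM in TS libraries, 136, 142 and 143 in TGFb1 libraries, 149, 148 and 143 in STC1 libraries and 153, 152 and 154 in Con libraries. The 3 Con libraries lie within a narrow range above all 9 treated libraries. Pdlim5 fell in TS against Con with a log2 fold change of −0.14 ± 0.0314 (edgeR adjusted p 0.00339) and in TGFb1 against Con with one of −0.13 ± 0.0314 (adjusted p 0.0112). The TS call ended without TS replicate 1 (adjusted p 0.0545), and the TGFb1 call without Con replicate 1 (adjusted p 0.0504) or TGFb1 replicate 1 (adjusted p 0.0785). With the length and GC trend removed both calls were kept, at −0.12 in each.

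Zyxin, a tension-sensitive LIM protein, had the smallest p of the members for a difference between the 2 STC-1 effects. Zyx had 385, 398 and 403 CPM in TS libraries, 372, 376 and 370.4 in TGFb1 libraries, 379.6, 349 and 381 in STC1 libraries and 405, 399.8 and 369 in Con libraries. Every TS library exceeded every TGFb1 library, while 2 of 3 STC1 libraries lay within the Con range. STC-1 went with 0.085 ± 0.0311 on the log2 scale in the presence of TGF-β1 (TS against TGFb1) and with −0.082 ± 0.0310 in its absence (STC1 against Con), a difference of 0.17 ± 0.0439. Over all genes this interaction had an adjusted p of 0.301, and it passed only when Con replicate 3, the lowest Con library, was left out. Trip6, a zyxin relative, averaged 79.2 ± 2.69 CPM in TS, 73.6 ± 0.739 CPM in TGFb1, 77.5 ± 5.71 CPM in STC1 and 74.2 ± 3.28 CPM in Con libraries. Its 0.094 in TS against Con had an adjusted p of 0.194. The actin-associated LIM proteins Pdlim7 and Csrp1 stood at means of 40.3 and 48.4 CPM and were called in no comparison.

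**Figure D3:**
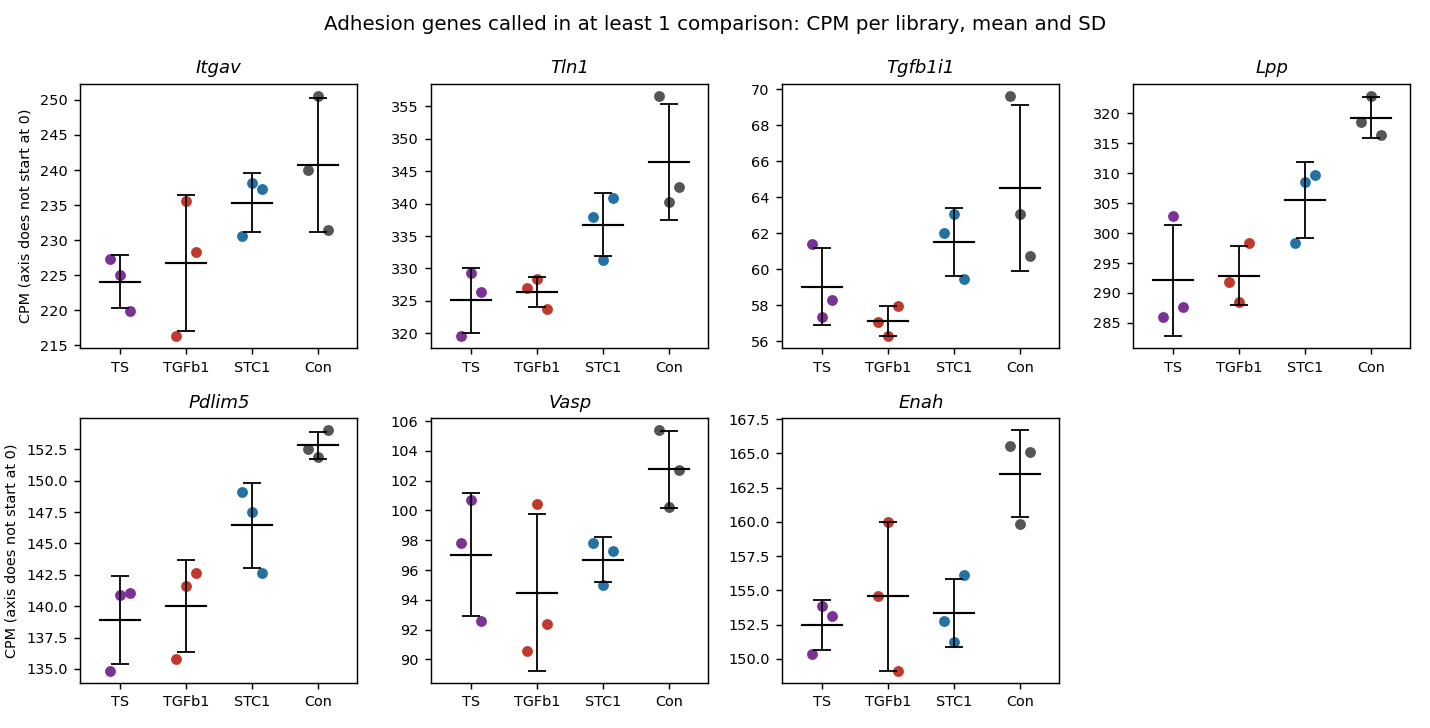
Levels in CPM of the 7 members called in at least 1 comparison, 1 point per library, with the mean and SD of each group of 3 (TS, TGFb1, STC1 and Con from left to right). The axes do not start at 0. In Lpp and Pdlim5 all 9 treated libraries lie below the 3 Con libraries, and in Tgfb1i1, Tln1, Vasp and Enah Con replicate 1 is the highest library.

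Kinases and adaptors gave no call. Ptk2, the focal adhesion kinase, had 104, 105 and 105 CPM in TS libraries, 105, 104 and 104 in TGFb1 libraries, 108, 106 and 109.99 in STC1 libraries and 112, 110.04 and 110.4 in Con libraries. All TS, TGFb1 and STC1 libraries lay below all Con libraries, the STC1 ones by the least. Its log2 fold change was −0.086 ± 0.0330 in TS (adjusted p 0.115), −0.085 ± 0.0331 in TGFb1 (adjusted p 0.139) and −0.040 ± 0.0328 in STC1 libraries (adjusted p 0.714), each against Con by edgeR. Among the kinase Src, its substrate Bcar1 (p130Cas), the adaptors Crk and Crkl, and the Rac regulators Git1 and Arhgef7 (β-Pix), the smallest adjusted p against Con was 0.277, for Src at −0.11 in TGFb1 against Con. Crk was the steadiest gene of the list, its highest library exceeding its lowest by 1.05 times.

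The complex of integrin-linked kinase (Ilk), PINCH-1 (Lims1) and α-parvin (Parva), which sits on β tails beside kindlin, held no call in the fit described. Parva averaged 288 ± 8.22 CPM in TS, 293 ± 5.50 CPM in TGFb1, 292 ± 7.57 CPM in STC1 and 305 ± 11.2 CPM in Con libraries, and its −0.087 in TS against Con had an adjusted p of 0.0601, with a call in 2 of 7 other fits (adjusted p between 0.0262 and 0.151). Lims1 averaged 208 ± 0.306 CPM in TS, 214 ± 4.87 CPM in TGFb1, 219.9 ± 1.85 CPM in STC1 and 216 ± 5.30 CPM in Con libraries. It was called in TS against Con only once the length and GC trend was removed, at −0.09 with an adjusted p of 0.0369. Ilk stood at 141 ± 6.48 CPM in TGFb1 and 149 ± 2.30 CPM in Con libraries with an adjusted p of 0.239.

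At the actin side, the Ena/VASP proteins, which lengthen filaments at adhesions, held 1 call in each of TS and TGFb1. Enah had 150.4, 154 and 153 CPM in TS libraries, 155, 159.97 and 149 in TGFb1 libraries, 153, 151 and 156 in STC1 libraries and 166, 159.8 and 165 in Con libraries. Every TS and every STC1 library lay below every Con library, and TGFb1 replicate 2 crossed the lowest Con value. Enah fell in TS against Con with a log2 fold change of −0.10 ± 0.0308 (edgeR adjusted p 0.0356). The call was lost without Con replicates 1 or 3 or without any 1 of the TS replicates, with adjusted p between 0.0556 and 0.17.

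Vasp had 97.8, 101 and 92.6 CPM in TS libraries, 90.6, 100.5 and 92.4 in TGFb1 libraries, 97.8, 95.005 and 97.3 in STC1 libraries and 105, 100.2 and 103 in Con libraries. TGFb1 replicate 2 exceeded the lowest Con library, so these groups overlap. Vasp fell in TGFb1 against Con with a log2 fold change of −0.12 ± 0.0373 (edgeR adjusted p 0.0478). The call lay close to the threshold and ended in 9 of 12 fits with 1 library left out, with DESeq2 (adjusted p 0.095), and with the length and GC trend removed (adjusted p 0.106).

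Actn1, an α-actinin that bundles stress fibres, had 381, 393 and 377 CPM in TS libraries, 373, 387 and 378 in TGFb1 libraries, 374, 376 and 371 in STC1 libraries and 394, 385 and 388 in Con libraries. The STC1 values lay below all Con values, and the TGFb1 and TS ranges crossed them. Log2 fold changes were −0.019 ± 0.0266 in TS, −0.036 ± 0.0267 in TGFb1 and −0.057 ± 0.0266 in STC1 libraries against Con, with adjusted p of 0.757, 0.527 and 0.440. Actn4 averaged 595 ± 8.28 CPM in TS, 580 ± 4.99 in TGFb1, 588 ± 6.85 in STC1 and 589.9 ± 4.51 in Con libraries. Flna averaged 1498 ± 55.7 CPM in TS, 1487 ± 17.5 in TGFb1, 1493 ± 2.26 in STC1 and 1542 ± 6.61 in Con libraries (SD, n = 3 each). In both genes every TGFb1 library lay below every Con library, and in Flna every STC1 library did too. Neither gene was called in any comparison. Tensins, which hold the older fibrillar adhesions, gave no call, the smallest adjusted p against Con being 0.0988 for Tns1 at −0.10 in TGFb1 against Con.

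Adding STC-1 to TGF-β1 moved no member past the test. In TS against TGFb1 libraries edgeR and DESeq2 each called 0 of 38, as edgeR did for 0 and DESeq2 for 1 of all genes, and the smallest adjusted p was 0.652. At an unadjusted p under 0.05, Zyx and Trip6 were higher and Itga6 lower, 3 of 38 against 6.5% of all genes. Fold changes of the 35 members above 20 CPM lay between −0.11 and 0.11 on the log2 scale, and none of their 95% intervals reached beyond 0.209. Of the 38 fold changes 17 were below 0, where 49.5% of all genes were, with a median of 0.001 against 0.0007 over all genes.

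In TS against STC1 libraries, the comparison of TGF-β1 in the presence of STC-1, edgeR also called 0 of 38, where 0.298% of all genes were called, and DESeq2 called 0 of the 22 members to which it gave an adjusted p. The smallest adjusted p was 0.241, for Zyx, and 1 member was higher and 5 lower at an unadjusted p under 0.05, where 4.51% and 4.67% of all genes were. The interaction of the 2 proteins was called in 0 members by edgeR and by DESeq2, and in 0 of all genes by edgeR. At an unadjusted p under 0.05, Zyx and Vasp were higher, where 4.38% of all genes were. Of the 38 interaction terms 29 were above 0, where 50.8% of all genes were, with a median of 0.04 against 0.002 over all genes. With a trend with the length and GC share of transcripts removed, 16 instead of 9 were below 0 and the median was 0.0086, and without Con replicate 1 the median was 0.023.

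Averaging over STC-1, the 6 libraries with TGF-β1 (TS and TGFb1) against the 6 without (STC1 and Con) gave 5 falls and 0 rises, where 2.31% of all genes were called lower and 2.39% higher. The log2 fold changes were −0.10 ± 0.0222 for Pdlim5, −0.095 ± 0.0197 for Lpp, −0.12 ± 0.0310 for Tgfb1i1, −0.079 ± 0.0215 for Itgav and −0.069 ± 0.0192 for Tln1. Their edgeR adjusted p were 0.00267, 0.00152, 0.0143, 0.0202 and 0.0228. The count was 3 without Con replicate 1 or without STC1 replicate 2 or 3, and with the length and GC trend removed the calls were Tgfb1i1, Lpp, Pdlim5 and Lims1. Averaging over TGF-β1, the 6 libraries with STC-1 (TS and STC1) against the 6 without (TGFb1 and Con) gave 0 calls with edgeR, where 0.085% of all genes were called, and a smallest adjusted p of 0.379, for Trip6. DESeq2 gave 10 of the 38 an adjusted p, Trip6 not among them, and called 0. At an unadjusted p under 0.05, 1 member was higher and 4 lower, where 4.59% and 3.74% of all genes were.

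The lower values of the treated groups went with high values in Con replicates 1 and 2. Taking each gene's deviation from its mean over the 12 libraries, the members' median was −0.022, 0.0016 and −0.032 (log2) in the TS libraries and −0.021, −0.021 and −0.022 in the TGFb1 libraries. It was 0.0097, −0.012 and 0.0028 in the STC1 libraries, and 0.053, 0.036 and 0.0084 in the Con libraries. Over all genes tested the same median lay between −0.00021 and 0.0046. The TGFb1 libraries lay together below 0, and Con replicate 3 was close to STC1 replicate 1. In Con replicate 1, 30 of 38 members were above their own mean, and in Con replicate 3, 21. Leaving out 1 library at a time, the median fold change of the members stayed between −0.055 and −0.037 in TS and between −0.062 and −0.039 in TGFb1 libraries, each against Con. In STC1 against Con it stayed between −0.050 and −0.025.

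**Figure D4:**
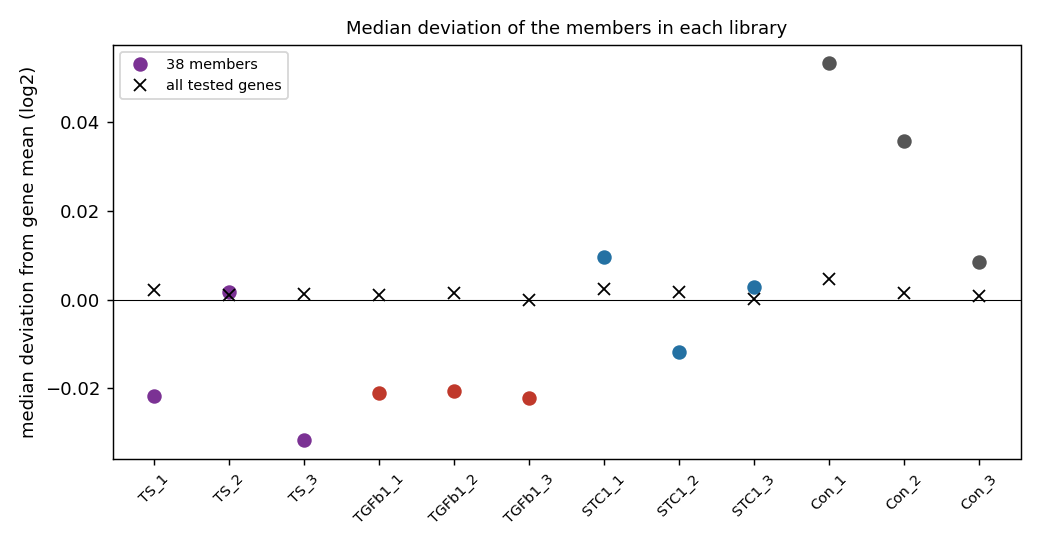
Median deviation (log2) of the 38 genes from their own means in each library, with TS, TGFb1, STC1 and Con libraries from left to right. Crosses give the same median over the 11763 genes tested, between −0.00021 and 0.0046. Con replicate 1 is highest at 0.053 and TS replicate 3 lowest at −0.032.

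Transcript length moved with the fold changes in all 3 comparisons against Con, and base composition with those of TGFb1 and STC1 libraries. The members' transcripts had a median length of 4094 nt and a GC content of 55.1%, against 3026 nt and 50.2% for all genes tested. Over 6123 abundant genes, which are not independent replicates, Spearman's rho between length and log2 fold change was −0.427 in TS, −0.303 in TGFb1 and −0.289 in STC1 libraries against Con. Between GC content and log2 fold change it was −0.0126 in TS, −0.213 in TGFb1 and −0.275 in STC1 libraries, and 0.406 for the interaction. With a length and GC trend removed from each library, 24 instead of 30 members were below 0 in TS against Con and 23 instead of 32 in TGFb1 against Con, and 21 instead of 29 in STC1 against Con. The median fell in size to −0.018 in TS, −0.019 in TGFb1 and −0.006 in STC1 libraries, beside 0.0019, 0.0045 and 0.0018 over all genes. The calls were then Pdlim5, Enah, Tgfb1i1 and Lims1 in TS and Tgfb1i1, Lpp and Pdlim5 in TGFb1 libraries.

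**Figure D5:**
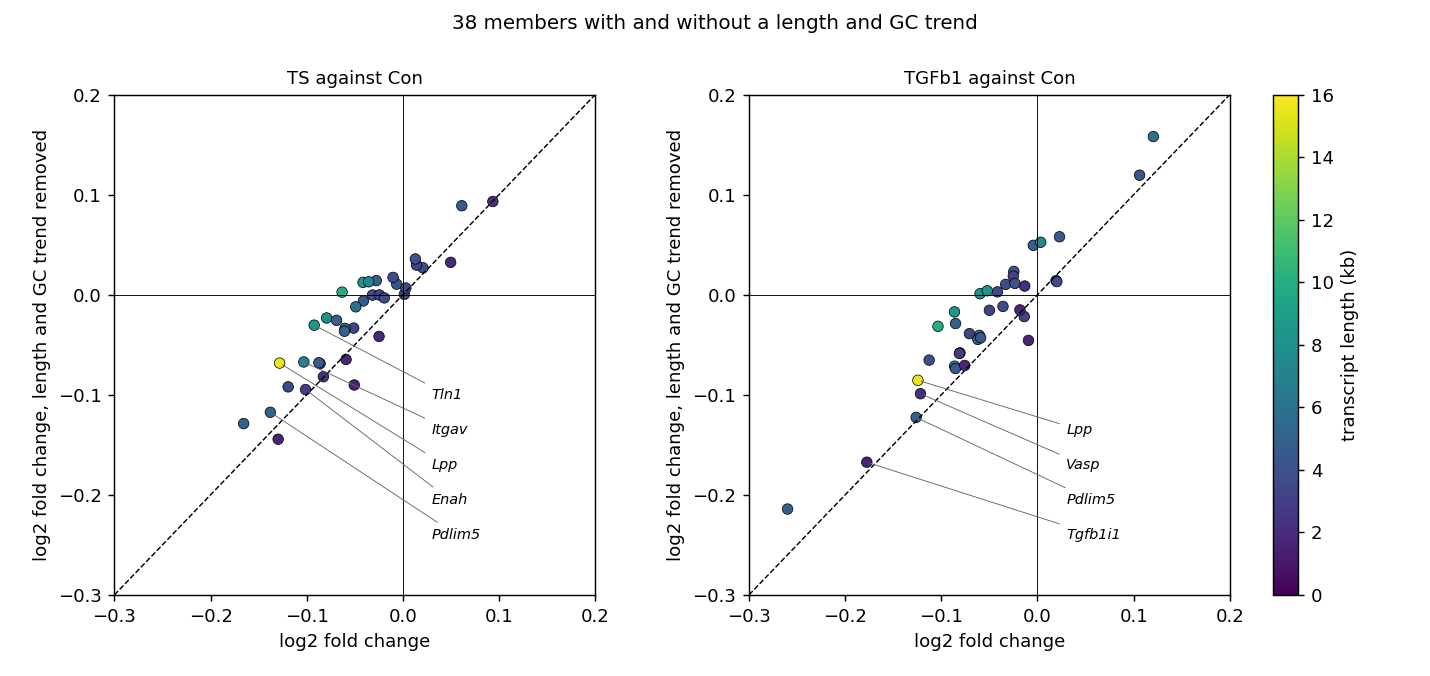
Log2 fold changes of the 38 genes against Con before (horizontal axis) and after (vertical axis) a length and GC trend was removed, for TS on the left and TGFb1 on the right, coloured by transcript length. Names mark genes called before removal. Long transcripts such as Lpp (15459 nt) and Tln1 (8393 nt) move above the dashed line of equal values.

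Among the ligands that these receptors bind, more genes fell than rose in TS and in TGFb1 libraries. Of 15 ligand genes tested, 6 fell and 1 rose in TS against Con, where 2.88% of all genes were called lower and 3.18% higher. In TGFb1 against Con 4 fell and 1 rose, where 2.08% were called lower and 1.9% higher. In STC1 against Con edgeR called 0, and at an unadjusted p under 0.05 there was 1 higher and 5 lower, where 5.4% of all genes were higher and 5.21% lower. Fold changes were below 0 in 13 of the 15 in TS, 12 in TGFb1 and 13 in STC1 libraries. Their median (log2) was −0.11 in TS, −0.086 in TGFb1 and −0.052 in STC1 libraries, beside −0.00021, −0.0022 and −0.0018 over all genes. These wider lists were not refitted with the length and GC trend removed. Col1a2, a chain of type I collagen, averaged 4876 ± 189.6 CPM in TS, 4899 ± 114 CPM in TGFb1 and 5419.7 ± 232 CPM in Con libraries (SD, n = 3 each). It fell with a log2 fold change of −0.15 ± 0.0290 in TS (adjusted p 0.000609) and with one of −0.15 ± 0.0290 in TGFb1 libraries (adjusted p 0.00184). Fn1, fibronectin, the ligand of α5β1, averaged 5563 ± 201 CPM in TS, 5525 ± 51.1 CPM in TGFb1 and 6006 ± 242 CPM in Con libraries. It fell with a log2 fold change of −0.11 ± 0.0268 in TS (adjusted p 0.00595) and with one of −0.12 ± 0.0268 in TGFb1 libraries (adjusted p 0.00429).

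In TS against Con, Nid1 (nidogen-1, of the basement membrane) fell with a log2 fold change of −0.12 ± 0.0256 (adjusted p 0.00207) and Lamc1 (laminin γ1) with one of −0.11 ± 0.0262 (adjusted p 0.00799). Fbn1, the microfibril protein fibrillin-1, fell with a log2 fold change of −0.14 ± 0.0306 in TGFb1 libraries (adjusted p 0.00369). Spp1, the αv ligand osteopontin, averaged 707 ± 33.5 CPM in TGFb1 and 627 ± 16.6 CPM in Con libraries and rose by 0.17 ± 0.0278 (adjusted p 3.74e-05).

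Of the 50 other adhesion and adaptor genes tested, 4% were called in TGFb1 against Con, where 3.99% of all genes were. In TS against Con 4% were called, where 6.06% of all genes were. Pdlim1, another α-actinin-binding PDZ and LIM gene, rose in TGFb1 against Con by 0.21 ± 0.0480 (adjusted p 0.00625). Its relative Pdlim5 fell in the same libraries. Sorbs3 (vinexin, a vinculin partner) fell with a log2 fold change of −0.28 ± 0.0717 in TGFb1 libraries (adjusted p 0.0152). In TS against Con, Fyn, a Src-family kinase, fell with a log2 fold change of −0.16 ± 0.0387 (adjusted p 0.00568) and Svil, supervillin, with one of −0.13 ± 0.0381 (adjusted p 0.0337). The list's median log2 fold change was −0.037 in TS and −0.031 in TGFb1 libraries, beside −0.00021 and −0.0022 over all genes. The other 10 integrin subunits tested gave 0 edgeR calls against Con. Of all genes, 6.06% were called in TS, 3.99% in TGFb1 and 0.051% in STC1 libraries. At an unadjusted p under 0.05 there were 0 of the 10 in TS, 2 in TGFb1 (1 higher and 1 lower) and 0 in STC1 libraries. Of all genes 18.8%, 17.7% and 10.6% were. The medians of the 10 were 0.061 in TS and −0.0035 in TGFb1 libraries.

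A few actin genes outside these lists are given because they passed the test, so that their directions describe these genes alone. Cfl1, cofilin, which severs actin filaments, averaged 1049 ± 41.8 CPM in TS, 1036 ± 7.06 CPM in TGFb1 and 958 ± 22.96 CPM in Con libraries. It rose by 0.13 ± 0.0268 in TS (adjusted p 0.00101) and by 0.11 ± 0.0268 in TGFb1 libraries (adjusted p 0.00672). Acta2, the smooth muscle actin used as a myofibroblast marker, averaged 365 ± 4.19 CPM in TS, 349.9 ± 18.1 CPM in TGFb1 and 391 ± 4.36 CPM in Con libraries. It fell with a log2 fold change of −0.10 ± 0.0284 in TS (adjusted p 0.0274) and with one of −0.16 ± 0.0285 in TGFb1 libraries (adjusted p 0.000286). Tagln2, transgelin-2, rose by 0.10 ± 0.0284 in TGFb1 libraries (adjusted p 0.0386). In TS libraries, Mrtfb, a coactivator of serum response factor, fell with a log2 fold change of −0.20 ± 0.0474 (adjusted p 0.00464). In TS against TGFb1 libraries edgeR called 0 genes of any of the 3 wider lists, as it did of all genes. At an unadjusted p under 0.05 there were 0 of 10 other integrins, 1 of 15 ligand genes and 4 of 50 adhesion or adaptor genes. Of all genes 6.5% were.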

How the data were processed

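Poly-A RNA of 12 NIH-3T3 cultures was sequenced from MGIEasy libraries, per the labels' protocols. The authors deposited expected counts per gene, not scaled between libraries, a unit read from the values (88.5% to 89.1% whole within 1e-06 per library). The genome build was GRCm39 per the submitters' processing notes, and the aligner, counter and use of strand are not given in the sources used here. Reads of overlapping or antisense genes therefore cannot be told apart. RefSeq GRCm38.p6 gave symbols for 16177 of 16300 gene identifiers, and unmatched identifiers took no more than 0.123% of any library.

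Expected counts were rounded and fitted with edgeR 4.0.16 (R 4.3.3): filterByExpr, TMM, robust quasi-likelihood fit, 1 mean per group, 8 residual degrees of freedom, two-sided tests, Benjamini-Hochberg over 11763 genes. Intervals are at 95%. The median biological coefficient of variation was 2.24%. A chi-square per degree of freedom of 1.46 to 2.46 between replicates exceeds sampling noise in each pair. Lengths come from GENCODE transcripts (principal isoform). The steps were tested on simulated data.

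Alternatives were DESeq2 1.42.0, no TMM, other count filters, only the compared groups, a replicate block, a length and GC trend offset, and each library left out. Members and lists were chosen with earlier results of these data known. Values per library are given for called members and 13 fixed genes, and at most 4 called genes per wider list and comparison are named. Another list is not reported here.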

Additional observations from a re-analysis of the deposited data

How the results depend on the processing

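The counts of called members moved in these fits. In TS against Con the count was 5, and 2 (Lpp and Pdlim5) when only the compared groups were fitted. With 1 library left out it lay between 1 and 7 in TS against Con, between 1 and 6 in TGFb1 against Con and between 3 and 6 for TGF-β1 averaged over STC-1. For the interaction it lay between 0 and 1, the 1 being Zyx. It stayed at 0 in TS against TGFb1, TS against STC1, STC1 against Con and STC-1 averaged over TGF-β1 in each fit run, though DESeq2 gave only 22, 16 and 10 members an adjusted p in the last 3. None of the 14 called fold changes changed sign in any fit run, and 4 were called in all fits with 1 library left out. Of 290 uncalled fold changes, 131 changed sign in at least 1 fit. The called changes were picked for lying away from 0 in these same libraries, so their steady sign gives the calls no separate support. The cause of the lost calls was not tested.

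Same-numbered libraries of different groups correlated between −0.0232 and 0.245 over 18 pairs, with 6 above 0.1 and a median of 0.082, against −0.038 for differently numbered pairs. The values were centred within each group, which ties the second median to the first. As not every pair was above 0.1, the numbers were not taken to pair the cultures. This bar was chosen and cannot decide whether they do. With the number as a replicate block, 7 members were called in TS against Con (Tgfb1i1 and Parva added), 5 in TGFb1 against Con (Tln1 added) and 5 for TGF-β1 averaged over STC-1.

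Counting error weighs most on Itgb3, Itga11 and Itga3, which lie below 20 CPM. Of 11763 genes, each with an adjusted p, edgeR called 713 in TS against Con, 469 in TGFb1 against Con and 6 in STC1 against Con. DESeq2 called 478 of the 4009 genes with an adjusted p in TS against Con, 331 of 5377 in TGFb1 against Con and 45 of 1501 in STC1 against Con. With the block, edgeR called 52 genes in STC1 against Con.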
